A study of Mus musculus with 6 samples.

Results

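Osteocytes are the cells that osteoblasts become once they are enclosed in mineralised bone. This group holds 10 genes of osteocytes and of the response to parathyroid hormone (PTH): Dmp1, Phex, Mepe, Sost, Fgf23, Pdpn, Pth1r, Vdr, Cyp24a1 and Gja1. They were taken as a list by name, and all 10 had a probe set paired with 1 gene symbol, out of 22180 genes so measured. Each had 1 such probe set, so no choice between probe sets was needed. The comparison asks how these genes differ between bone marrow stromal cells of mice with acute and with chronic myeloid leukemia. RNA from primary sorted cells was measured on 6 Affymetrix arrays, 3 from mice with acute myeloid leukemia (AML) and 3 from mice with chronic myeloid leukemia (CML). Mice of both groups carried Col2.3 GFP, a transgene whose Col1a1 promoter fragment drives green fluorescent protein in osteoblasts and osteocytes, and the labels call the sorted cells osteoblastic. The arrays were assigned by their titles, while every source name reads CML, so every direction below rests on the titles. How the leukemias were made, the strain, the age and the sex of the mice, and any pooling are not given in the sources used here, and no healthy group was analysed here. The labels do not state that each array came from its own mouse. The p-values therefore cover the spread among these arrays, part or all of which may be technical.

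As background, osteocytes secrete the hormone FGF23, which makes the kidney excrete phosphate, and sclerostin, the product of Sost, which blocks Wnt signalling in osteoblasts. The matrix proteins encoded by Dmp1 and Mepe and the membrane endopeptidase encoded by Phex act on mineralisation and on the supply of FGF23. PTH signals through the receptor encoded by Pth1r and cyclic AMP, and calcitriol, the active form of vitamin D, signals through the nuclear receptor encoded by Vdr, whose classical target Cyp24a1 encodes the enzyme that inactivates calcitriol.

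The sequences before the starts of 4 of the genes are shown because Dmp1, Phex and Gja1 were among the widest-ranging of the 10 across the arrays and Mepe is the chromosome 5 relative of Dmp1. RefSeq promoter windows of build GRCm38.p6 matched 9 of the 10 genes, all but Cyp24a1, with 12 windows in all. Capitals mark 4 motifs, searched on both strands: the RUNX core, whose letters are TGTGGT, the AP-1 element, TGANTCA, the core of the cyclic AMP element, TGACG, and a TATA-like element, TTTAAA, counted only in the last 50 bases before the start. No 2 marked matches overlap. The 250 bases before a start are given 5′ to 3′ on the strand of the gene.
Dmp1, GRCm38.p6 chr5:104202367-104202616, plus strand, the downstream of 2 starts: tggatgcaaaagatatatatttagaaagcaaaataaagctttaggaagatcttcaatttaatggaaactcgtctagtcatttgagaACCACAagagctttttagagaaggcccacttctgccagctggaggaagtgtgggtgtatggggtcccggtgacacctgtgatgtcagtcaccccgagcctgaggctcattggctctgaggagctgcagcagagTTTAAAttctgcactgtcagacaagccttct
Mepe, GRCm38.p6 chr5:104325079-104325328, plus strand: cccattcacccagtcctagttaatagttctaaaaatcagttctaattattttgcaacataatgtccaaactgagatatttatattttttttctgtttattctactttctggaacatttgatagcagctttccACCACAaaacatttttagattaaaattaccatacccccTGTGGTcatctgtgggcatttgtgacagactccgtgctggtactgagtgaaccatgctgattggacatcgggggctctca
Phex, GRCm38.p6 chrX:157415287-157415536, minus strand: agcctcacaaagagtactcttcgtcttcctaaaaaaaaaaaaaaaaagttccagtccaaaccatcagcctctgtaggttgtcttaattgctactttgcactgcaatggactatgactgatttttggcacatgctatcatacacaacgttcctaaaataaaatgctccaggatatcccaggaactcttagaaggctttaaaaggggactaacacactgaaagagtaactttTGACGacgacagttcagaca
Gja1, GRCm38.p6 chr10:56377050-56377299, plus strand: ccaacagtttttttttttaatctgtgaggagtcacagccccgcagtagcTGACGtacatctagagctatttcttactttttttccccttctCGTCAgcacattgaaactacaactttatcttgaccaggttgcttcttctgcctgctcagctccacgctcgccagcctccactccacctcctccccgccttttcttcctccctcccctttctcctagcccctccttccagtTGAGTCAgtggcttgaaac

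Dmp1 and Mepe were the genes of the group with a RUNX core, once before Dmp1 and at 2 places before Mepe. It was in 2 of the 12 windows of the group, against 14.1% of all 32851 windows. Gja1 held an AP-1 element 19 to 13 bases before its start, which was 1 of the 12 windows, against 6.75% of all windows. The cyclic AMP element core was found before 5 of the 9 genes, namely Fgf23, Gja1, Phex, Pth1r and Sost. It was in 5 of the 12 windows, against 17.8% of all windows. TTTAAA was found close to the starts of Dmp1, Fgf23, Pdpn and Sost, in 4 of the 12 windows, against 2.37% of all windows. This TATA-like element was chosen for the search after these sequences had been read. These matches describe letters and no binding was measured.

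Values are log2 of the deposited intensity, and changes are AML minus CML. The median of all probe sets on an array was between 4.11 and 4.16 in AML and between 4.22 and 4.35 in CML. The median change of all genes was -0.11. It depended on the level of the gene: in 4 equal bins of 5545 genes, from the dimmest to the brightest by mean level, the medians were -0.16, -0.24, -0.06 and 0.39, and 84.6%, 81.8%, 54.5% and 26.0% of genes were lower in AML by value. No detection p-value was used, so a dim probe set could not be set against a background. Markers of the labelled cells were present, with Col1a1, the main collagen of bone, at 8.63, 9.87 and 7.26 on AML 1, 2 and 3 and at 10.22, 8.71 and 11.95 on CML 1, 2 and 3. Ptprc, the leukocyte marker CD45, was also present, at 9.30, 9.0003 and 8.17 in AML and at 8.27, 4.96 and 6.16 in CML. In bulk RNA, fewer cells of a type and less RNA per cell cannot be told apart.

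No gene of the 10 reached a limma adjusted p under 0.05, which 1.91% of all genes reached, 1.83% as higher and 0.0812% as lower in AML. All 10 were lower in AML by value, against 61.7% of all genes, with changes from -1.51 for Phex to -0.16 for Gja1 and a median of -0.40. At an unadjusted p under 0.05 stood 2 of the 10, Mepe and Cyp24a1, both lower, against 21.5% of all genes in either direction and 8.99% as lower. The 3 AML arrays lay below the 3 CML arrays for 3 of the 10, Mepe, Sost and Cyp24a1, against 17.9% of all genes, while 31.3% of all genes had groups that did not overlap in either direction. By range, Phex, Dmp1, Gja1, Pth1r, Vdr and Mepe spanned between 3.80 and 1.19 over the 6 arrays, and Cyp24a1, Fgf23, Pdpn and Sost between 0.65 and 0.47.

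**Figure D1:**
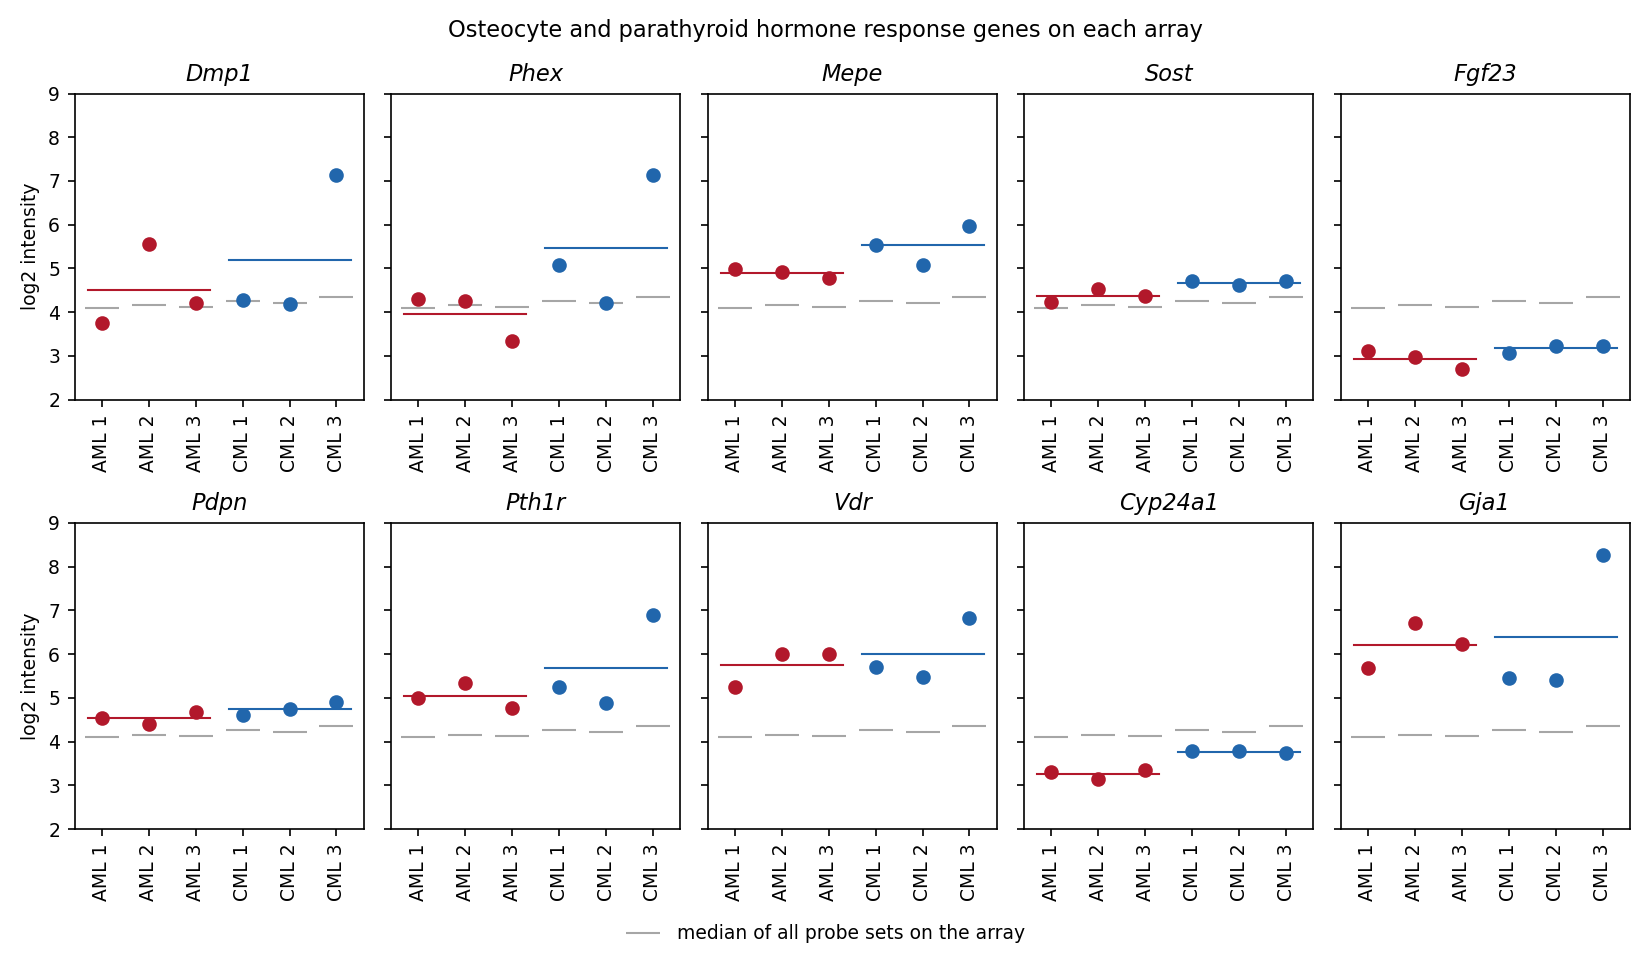
Log2 intensity (vertical axis) of the 10 genes on each of the 6 arrays, with AML arrays in red and CML arrays in blue; coloured lines are group means and short grey lines the median of all probe sets on that array. Dmp1, Phex, Pth1r, Vdr and Gja1 peak on CML 3, while Sost, Fgf23, Pdpn and Cyp24a1 span at most 0.65 over all 6 arrays.

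Among the genes of mineralised matrix, Phex had the lowest change. Phex (probe set 17545629, chromosome X) encodes an endopeptidase of osteoblasts and osteocytes whose loss causes X-linked hypophosphatemia. It was at 4.31, 4.26 and 3.34 on AML 1, 2 and 3, against 5.09, 4.21 and 7.14 on CML 1, 2 and 3. CML 3 stood far above the rest, CML 2 lay among the AML arrays, and the groups overlapped. The change was -1.51 ± 0.73 (SE; 95% interval -3.25 to 0.23; limma adjusted p = 0.274), which is 2.85-fold lower by value. Without CML 3 it was -0.68. The X-linked RNA Xist, which female cells express, was at 5.83, 9.70 and 9.47 on the AML arrays and at 5.75, 6.57 and 9.88 on the CML arrays. Xist was thus high on AML 2, AML 3 and CML 3 and lower on the other arrays, so it did not divide the groups. Its part in the Phex values was not tested.

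Dmp1 (probe set 17439805, chromosome 5) encodes dentin matrix protein, an acidic phosphoprotein of the osteocyte and its surroundings. It was at 3.75, 5.55 and 4.22 on the AML arrays, against 4.27, 4.18 and 7.14 on the CML arrays. Its highest value was on CML 3 and its next on AML 2, and the other 4 arrays lay between 3.75 and 4.27. The change was -0.69 ± 0.87 (SE; 95% interval -2.77 to 1.39; limma adjusted p = 0.629), and it turned to 0.28 without CML 3.

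Mepe (probe set 17439825, chromosome 5) encodes an osteocyte matrix phosphoglycoprotein that is related to dentin matrix protein and inhibits mineralisation. It was at 4.999, 4.93 and 4.79 on the AML arrays, against 5.53, 5.08 and 5.97 on the CML arrays. The groups did not overlap, although CML 2 stood only slightly above AML 1. The change was -0.62 ± 0.24 (SE; 95% interval -1.19 to -0.05) and did not pass (limma adjusted p = 0.207). Leaving out CML 3 gave -0.40, and the range with any 1 array left out was -0.85 to -0.40.

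The genes of the hormones and signals that osteocytes release, Sost and Fgf23, had small changes by value. Neither probe set could be set against a background. Sost (probe set 17269980, chromosome 11), which encodes sclerostin, was at 4.24, 4.52 and 4.38 on the AML arrays, against 4.71, 4.62 and 4.71 on the CML arrays. The AML arrays were all lower, within a span of 0.47 over the 6 arrays. The change was -0.30 ± 0.14 (SE; 95% interval -0.63 to 0.03; limma adjusted p = 0.259). After quantile normalization, median centring and cyclic loess, in that order, it was -0.18, -0.15 and -0.13. Among genes of the same bin by mean level as Sost, the median change was -0.24, and 27.4% had all AML arrays below all CML arrays. CML 3 stood 0.04 above the mean of CML 1 and CML 2 for Sost, where Dmp1 stood 2.91 above it.

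Fgf23 (probe set 17463338, chromosome 6) had all its values below the array medians, and it had the lowest mean of the 10. It was at 3.12, 2.97 and 2.71 on the AML arrays, against 3.07, 3.23 and 3.22 on the CML arrays. The groups overlapped, and the change was -0.24 ± 0.16 (SE; 95% interval -0.62 to 0.13; limma adjusted p = 0.374). Under the same 3 scalings it was -0.10, -0.09 and -0.07.

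Of the hormone receptors, Pth1r stood high on CML 3 and Vdr did so less. Pth1r (probe set 17531650, chromosome 9), the receptor of PTH and of PTH-related peptide on osteoblasts and osteocytes, was at 5.004, 5.35 and 4.77 on the AML arrays, against 5.25, 4.88 and 6.89 on the CML arrays. CML 1 and CML 2 lay within the range of the AML arrays. The change was -0.63 ± 0.51 (SE; 95% interval -1.86 to 0.59; limma adjusted p = 0.459). Without CML 3 it was -0.02, with an interval of -0.61 to 0.56.

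Vdr (probe set 17321078, chromosome 15), the vitamin D receptor, which is also made by monocytes and macrophages, was at 5.26, 6.002 and 5.998 on the AML arrays, against 5.71, 5.47 and 6.82 on the CML arrays. AML 2 and AML 3 stood above CML 1 and CML 2, and CML 3 above all. The change was -0.24 ± 0.39 (SE; 95% interval -1.19 to 0.70; limma adjusted p = 0.707). Under the 3 scalings it was -0.42, -0.10 and -0.38. It was 0.17 without CML 3 and 0.003 without AML 1. Beside it, the mean of 8 monocyte and macrophage markers was between 6.04 and 6.95 on the AML arrays and between 5.17 and 5.55 on the CML arrays, with 5 higher and 3 lower in AML by value. Ccr2 and Cd68 passed as higher, and the macrophage genes Mrc1, C1qa and C1qb, at -0.35, -0.36 and -0.75, were the 3 that were lower. The part of such cells in the Vdr values was not tested.

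Cyp24a1 (probe set 17394965, chromosome 2) had the lowest unadjusted p of the 10 genes and the tightest CML values. It was at 3.30, 3.14 and 3.36 on the AML arrays, against 3.78, 3.79 and 3.74 on the CML arrays. The groups did not overlap, and every value lay below its array's median. The change was -0.51 ± 0.13 (SE; 95% interval -0.82 to -0.19), 1.42-fold lower by value, with an unadjusted p of 0.00688, and it did not pass (limma adjusted p = 0.111). Without CML 3 the change was -0.52, and under the 3 scalings it was -0.34, -0.36 and -0.29. In the bin of genes by mean level that holds Cyp24a1, the median change was -0.24 and 27.4% of genes had all AML arrays below all CML arrays.

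The remaining genes encode surface proteins of the osteocyte. Gja1 (probe set 17233347, chromosome 10) encodes connexin 43, the gap junction protein that joins osteocytes through their processes. It was at 5.69, 6.71 and 6.24 on the AML arrays, against 5.46, 5.42 and 8.26 on the CML arrays. All 3 AML arrays stood above CML 1 and CML 2 and below CML 3. The change was -0.16 ± 0.78 (SE; 95% interval -2.02 to 1.69; limma adjusted p = 0.905). Under the 3 scalings it was -0.35, -0.02 and -0.38. Without CML 3 it turned to 0.78 ± 0.31, with an interval of -0.01 to 1.56 (SE; limma adjusted p = 0.317), and without AML 1 it was 0.10.

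Pdpn (probe set 17432440, chromosome 4) encodes podoplanin, a mucin-like glycoprotein of early osteocytes that is also found on lymphatic endothelium and fibroblasts. It was at 4.54, 4.40 and 4.67 on the AML arrays, against 4.61, 4.74 and 4.90 on the CML arrays. The groups overlapped within a span of 0.50, and the change was -0.21 ± 0.15 (SE; 95% interval -0.57 to 0.14; limma adjusted p = 0.401). Under the 3 scalings it was -0.12, -0.07 and -0.07. The lymphatic markers Prox1, Lyve1 and Flt4 averaged between 3.96 and 4.26 on the AML arrays and between 4.17 and 4.67 on the CML arrays.

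**Figure D2:**
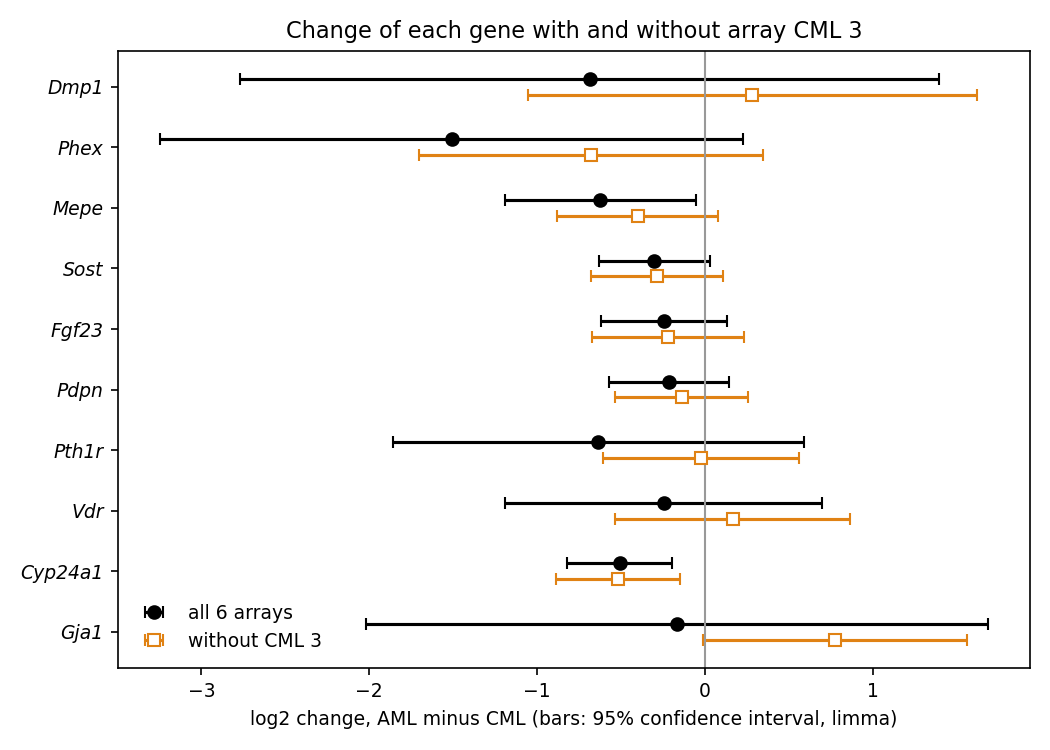
Log2 change, AML minus CML (horizontal axis), of each gene with all 6 arrays (filled circles) and without CML 3 (open squares); bars are 95% confidence intervals from limma. Without CML 3 the intervals of Dmp1, Phex, Pth1r, Vdr and Gja1 shorten and Dmp1, Vdr and Gja1 turn from below to above 0, while Cyp24a1 stays at -0.52 against -0.51.

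Of the 10 genes, 8 had their highest value on CML 3, all but Fgf23 and Cyp24a1, against 26.8% of all genes. For Sost, 1 of the 8, the lead was very small, with CML 3 at 4.707 and CML 1 at 4.705. CML 3 stood at least 1 above the mean of CML 1 and CML 2 for 5 of the 10 genes, against 1.89% of all genes, a step chosen after the values had been seen. These were Dmp1 at 2.91, Gja1 at 2.82, Phex at 2.49, Pth1r at 1.83 and Vdr at 1.23, and Mepe followed at 0.67. The mean of the 10 genes was 4.42, 4.78 and 4.45 on the AML arrays and 4.75, 4.56 and 5.88 on the CML arrays. Xist was also higher on CML 3, at 9.88, than on CML 1 and CML 2, at 5.75 and 6.57. Whether the sex of the mice has a part in the values of the 10 genes was not tested.

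Osteoblast markers stood high on the same array. The mean of 10 measured markers was 6.89, 7.66 and 6.20 on AML 1, 2 and 3, against 7.88, 6.93 and 9.26 on CML 1, 2 and 3. All 10 were lower in AML by value with a median of -1.11, none passed in limma, and 9 were highest on CML 3. For 9 of the 10, CML 3 stood at least 1 above the mean of CML 1 and CML 2. Among them were the osteoblast transcription factor gene Sp7 at 2.88 and the osteocalcin gene Bglap at 2.52. Sp7 was at 5.07, 5.90 and 4.81 in AML, against 6.24, 5.15 and 8.57 in CML, and Bglap at 4.44, 4.84 and 3.31, against 4.80, 4.25 and 7.04. AML 2 was the highest AML array for 9 of the 10 markers, all but Tnn, and for Dmp1, Gja1, Pth1r and Vdr, while AML 1 was the highest for Tnn, Phex and Mepe. The part of the osteoblast share of each sample in the values of the 10 genes was not tested.

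Markers of blood cells differed in direction by lineage. All 12 pan-haematopoietic markers were higher in AML by value, and 2 passed in limma. Their mean was between 9.14 and 9.93 on the AML arrays and between 6.95 and 8.71 on the CML arrays, with CML 3 at 7.88. Primary granule and progenitor markers averaged between 8.59 and 9.70 in AML and between 6.12 and 6.64 in CML, and 7 of 8 passed as higher. The erythroid markers went the other way: all 3 measured were lower in AML by value with a median of -1.35 and none passed, and their mean was between 5.01 and 8.57 in AML and between 7.64 and 9.25 in CML. Of 4 megakaryocyte and platelet markers, 3 were higher and 1 lower by value with a median of 1.49, and none passed. Their mean was 5.48, 7.07 and 8.93 on the AML arrays and 5.37, 6.61 and 5.74 on the CML arrays, so it was highest on AML 3. Perivascular stromal markers were between 4.28 and 4.98 in AML and between 4.31 and 4.99 in CML. Osteoclast, endothelial, chondrocyte and adipocyte markers had median changes of -0.32, -0.27, -0.20 and -0.05, and none of their genes passed. CML 3 stood at least 1 above the mean of CML 1 and CML 2 for 2 of 7 perivascular stromal markers. The same held for 1 of 7 osteoclast and 1 of 6 chondrocyte markers, and for 0 of 7 endothelial and 0 of 5 adipocyte markers. The part of these cells in the values of the 10 genes was not tested.

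**Figure D3:**
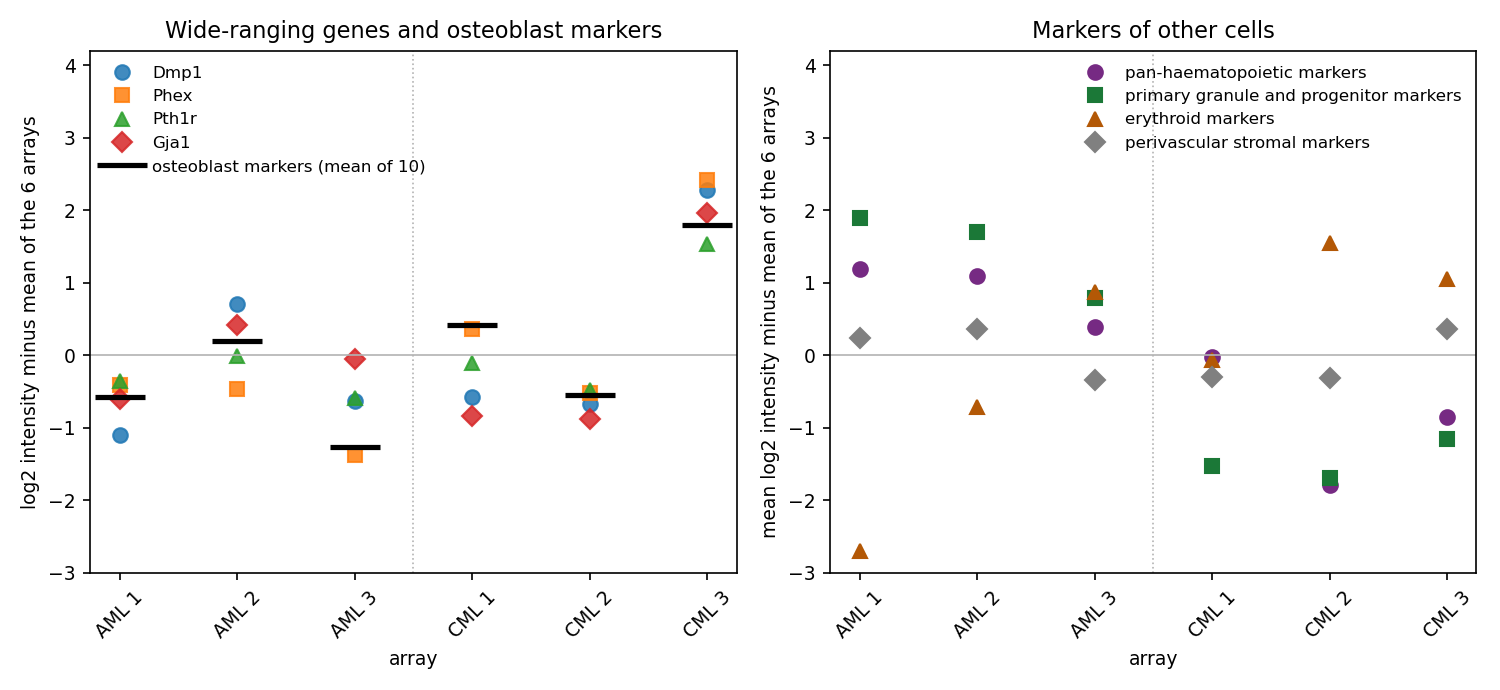
Log2 intensity minus the mean of the 6 arrays (vertical axis) for Dmp1, Phex, Pth1r and Gja1 with the mean of 10 osteoblast markers as black bars (left), and for the means of 4 marker lists of other cells (right), by array. The 4 genes and the osteoblast markers all stand highest on CML 3, and the pan-haematopoietic and primary granule markers are higher on each AML array than on each CML array.

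For the 4 genes that spanned at least 2 over the arrays, the 3 genes with the most similar profile were found by the root mean square distance between centred log2 profiles over the 6 arrays. Pth1r had the closest neighbours, at distances of 0.06 for Bmp1, a procollagen protease, 0.07 for Slit3, a secreted guidance protein, and 0.08 for Pygo1, a Wnt cofactor. Phex lay nearest to Maged1 at 0.19, Fxyd1 at 0.25 and Serpinf1, the gene of pigment epithelium-derived factor and also 1 of the 10 osteoblast markers, at 0.26. Gja1 lay nearest to Lifr at 0.28, Pdgfra at 0.29 and Omd, the keratan sulfate proteoglycan osteomodulin of bone, at 0.30. Dmp1 had the loosest neighbours, Gja1, Creb3l1 and S100b, at 0.38, 0.38 and 0.39. All of these genes were highest on CML 3, which the search favours because the 4 genes themselves peaked there. Without CML 3 the 3 nearest genes shared 0 with these for each of the 4.

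Among the 102 measured genes of 9 lists around these 10, 3 passed in limma, all 3 higher in AML. Of all genes 1.91% passed, and 1.83% as higher. Counts by value on these lists stand beside 61.7% of all genes lower in AML. In the 4 bins by mean level, from dimmest to brightest, 84.6%, 81.8%, 54.5% and 26.0% were lower. The median changes of these bins were -0.16, -0.24, -0.06 and 0.39. Of 21 genes of PTH ligands, receptors and cyclic AMP signalling, Sik1, the cyclic AMP-inducible salt-inducible kinase, rose by 1.53 ± 0.18 (SE; limma adjusted p = 0.0248). Sik1 was at 7.39, 7.34 and 6.88 on the AML arrays, against 5.52, 5.71 and 5.79 on the CML arrays. By value 13 of the 21 were higher and 8 lower, with a median of 0.39, which is also the median of the brightest bin of genes. Of 15 genes of vitamin D metabolism, receptor partners and targets, the nuclear receptor coactivators Ncoa3 and Ncoa1 rose, by 1.71 ± 0.24 and 1.34 ± 0.22 (SE; limma adjusted p = 0.0311 and 0.0414). Ncoa3 was at 6.71, 7.43 and 7.34 on the AML arrays, against 5.72, 5.31 and 5.31 on the CML arrays. By value 11 of the 15 were higher, with a median of 0.39. Sik1, Ncoa3 and Ncoa1 were higher on every AML array than on every CML array, as was the mean of the pan-haematopoietic markers. The part of blood cells in the values of these 2 lists was not tested. With 1 array left out, Sik1 passed in 3 of the 6 fits, Ncoa1 in 2 and Ncoa3 in 1. All 3 missed the threshold without CML 3, without AML 1 and without AML 2, where no gene of all those measured passed. They also missed it after quantile normalization (limma adjusted p = 0.0627 for Sik1, 0.0620 for Ncoa3 and 0.0858 for Ncoa1) and after cyclic loess, as did Ncoa3 and Ncoa1 with an offset of 16.

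None of the genes on the other 7 lists passed, and their counts by value stand beside 61.7% of all genes lower in AML. Of 14 PTH target genes, 5 were higher and 9 lower by value with a median of -0.06, and the immediate early genes Nr4a1 and Fos, at 0.83 and 1.37, had the lowest p (limma adjusted p = 0.239 and 0.242). Of 17 other osteocyte and late osteoblast genes, 6 were higher and 11 lower with a median of -0.16. The prostaglandin dehydrogenase gene Hpgd was at 3.81 ± 0.80 (SE; limma adjusted p = 0.0717), with levels of 9.79, 9.80 and 8.49 in AML, against 4.59, 4.68 and 7.39 in CML. The part of blood cells in the Hpgd values was not tested. The Wnt antagonist gene Dkk1 was at -0.86 ± 0.24 (SE; limma adjusted p = 0.131), with levels of 3.86, 4.01 and 3.35 in AML, against 4.39, 4.43 and 4.97 in CML, without overlap. Dkk1 also belongs to the 11 sclerostin receptor and bone Wnt antagonist genes, where 3 were higher and 8 lower with a median of -0.28, and where Sfrp4 stood at 0.70 (limma adjusted p = 0.175).

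The relatives of Dmp1 and Mepe were lower by value. Ibsp, the bone sialoprotein gene, was at -0.88 ± 0.64, and Dspp, the dentin sialophosphoprotein gene, at -0.50 ± 0.19 (SE; limma adjusted p = 0.415 and 0.203). Ibsp was at 8.34, 9.43 and 7.73 on the AML arrays, against 9.21, 8.38 and 10.56 on the CML arrays, again with CML 3 highest. Of 10 genes of phosphate handling and of FGF23 processing and reception, 1 was higher and 9 lower with a median of -0.24. Of all genes 61.7% were lower, with a median of -0.11. The FGF23-cleaving protease gene Furin was at -0.70 and the receptor gene Fgfr1 at -0.83 (limma adjusted p = 0.191 and 0.310).

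Around Gja1, 8 of 9 connexin, pannexin and junction partner genes were lower by value, against 61.7% of all genes, and the list's median was -0.16. In the dimmest bin of genes and the next, where most of this list lay, 84.6% and 81.8% were lower. The medians of those bins were -0.16 and -0.24. Tjp1, the tight junction scaffold that binds connexin 43, was at -1.44 ± 0.45, and Panx3, a pannexin of osteoblasts, at -0.85 ± 0.27 (SE; limma adjusted p = 0.151 and 0.152). Tjp1 was at 4.24, 5.05 and 6.05 on the AML arrays, against 6.24, 6.88 and 6.53 on the CML arrays, without overlap. Of 7 podoplanin partners, 6 were higher by value with a median of 0.77. In the brightest bin of genes, which holds most of these partners, 26.0% were lower and the median change was 0.39. The membrane to actin linker gene Rdx was at 0.77 ± 0.16 and Cd44, the hyaluronan receptor, at 0.90 ± 0.26 (SE; limma adjusted p = 0.0652 and 0.133). Clec1b, the platelet receptor of podoplanin, was at 4.03, 4.57 and 6.16 on the AML arrays, against 3.70, 4.11 and 3.98 on the CML arrays, and the tetraspanin gene Cd9 was at 7.73, 7.77 and 8.52, against 6.91, 7.01 and 7.43. Both were highest on AML 3, the array on which the megakaryocyte and platelet markers were highest, at a mean of 8.93. The part of platelets and other blood cells in the values of this list was not tested.

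**Figure D4:**
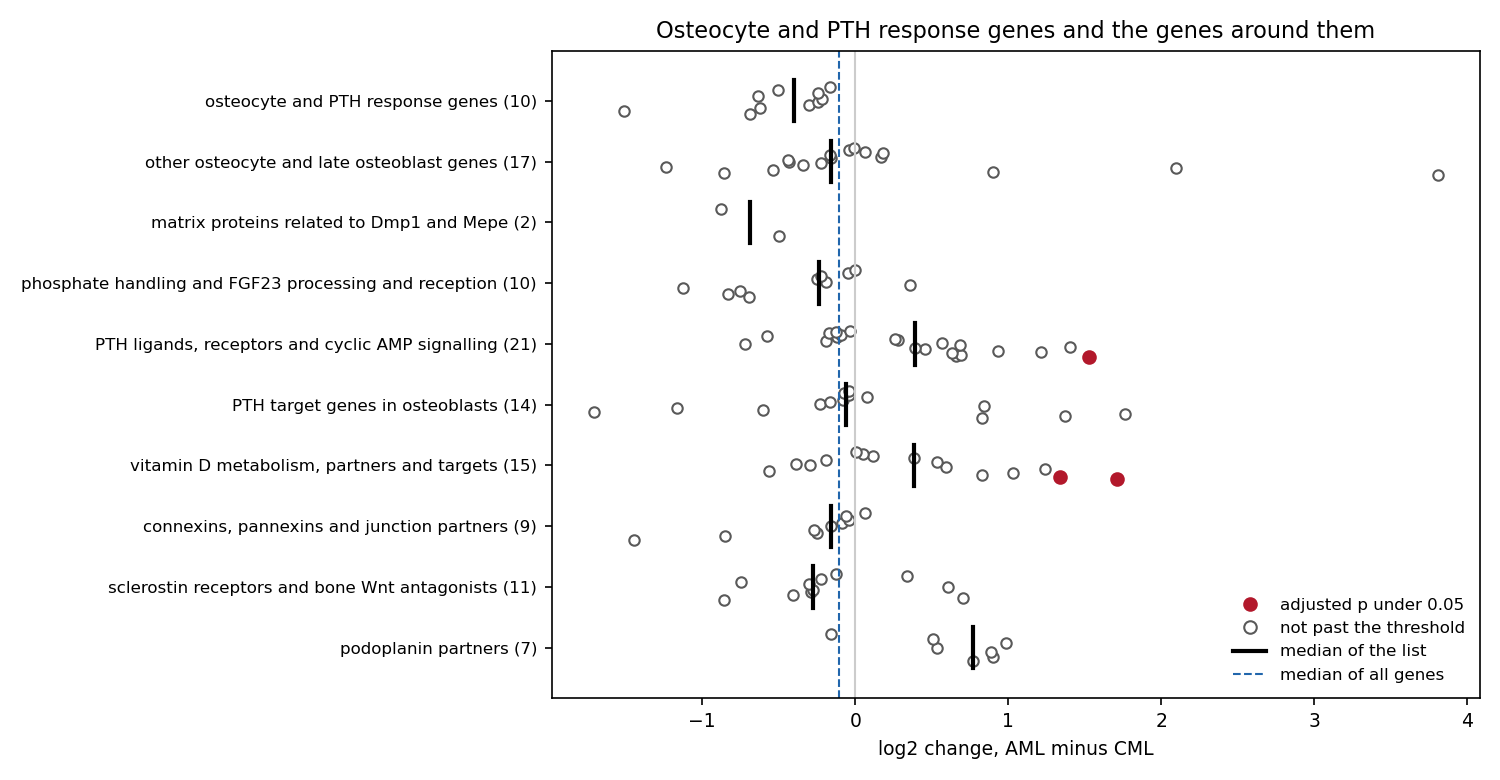
Log2 change, AML minus CML (horizontal axis), of the 10 genes and of the measured genes of 9 lists around them (rows, with the number of genes); filled red points passed an adjusted p of 0.05, black bars are list medians and the dashed line is the median of all genes at -0.11. The 10 genes all lie below 0, and the 3 genes that passed, Sik1, Ncoa3 and Ncoa1, lie above 1.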

How the data were processed

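Gene expression was measured on 6 single-sample Affymetrix arrays, with labelling by a GeneChip wild-type terminal kit, per the labels' protocols. The authors deposited probe set intensity values on a linear scale, from 2.71 to 8583 as judged from the values. Per the submitters' processing notes, limma and lumi were used; background correction, summarisation, normalization and genome build are not given in the sources used here. Arrays did not share a common distribution, and arrays have no read depth, so their number limits the precision.

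The platform annotation paired 23521 of 39721 probe sets with 1 symbol; 1814 had several and 14386 had none. The highest-mean probe set stood for each of 22180 genes. Log2 values went through lmFit and eBayes (limma 3.58.1, R 4.3.3) with no covariate or filter, two-sided, with Benjamini-Hochberg adjustment over all genes and a threshold of 0.05. The steps were tested on simulated data. Promoter windows are RefSeq's of GRCm38.p6. Figures were drawn with matplotlib 3.10.9.

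The 10 genes, the 9 lists around them and the 12 marker lists were chosen with earlier results of these data known. The lists held 114 genes, of which 102 were measured, and the marker lists 87, of which 80 were. Named genes were the 10, up to 3 genes past the threshold of each list or else its 2 lowest p, Col1a1, Bglap, Sp7 and Ptprc, and the 3 most similar profiles of each gene spanning at least 2. In the profile search, predicted, small RNA, olfactory and vomeronasal genes were passed over. Xist, Ccr2, Cd68, Mrc1, C1qa, C1qb, Tnn, Clec1b, Cd9, Prox1, Lyve1 and Flt4 were named after their values were seen. The alternatives were 3 other scalings, an offset of 16, the upper 50% of genes by mean level, 2 treatments of probe sets, trend and robust options, array weights, a block on the replicate number and 1 array left out at a time. Those for genes beside the 10 were added after the data were seen.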

Additional observations from a re-analysis of the deposited data

How the results depend on the processing

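The count of the 10 genes past the threshold was 0 in limma under all 16 alternatives, with 0 to 3 of them at an unadjusted p under 0.05, against 2 as fitted. Of 157 values of the 10 genes under the alternatives, 152 kept their direction and 5 turned. Without CML 3, Dmp1 turned to 0.28, Vdr to 0.17 and Gja1 to 0.78, and without AML 1, Vdr turned to 0.003 and Gja1 to 0.10. The cause was not tested. The change of Phex ran from -2.14 to -0.68 and that of Mepe from -0.85 to -0.40 over all alternatives, and Cyp24a1 from -0.55 to -0.21, with adjusted p between 0.0939 and 0.366. Sost, Fgf23 and Cyp24a1 were dimmer than the 50% cut on mean level and gave no value there. With 1 array left out, Dmp1 ran from -1.21 to 0.28, Vdr from -0.51 to 0.17 and Gja1 from -0.64 to 0.78.

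The count of all genes past the threshold was 423 as fitted. It was 93 after quantile normalization, 896 after median centring, 64 after cyclic loess, 232 with an offset of 16 and 639 with array weights. With 1 array left out it ran from 0 to 438, and it was 0 without AML 1, AML 2 or CML 3, where 3048, 3750 and 3533 genes had an unadjusted p under 0.05 in limma. With a replicate block it was 0, with 3711 genes at an unadjusted p under 0.05. Same-numbered arrays had deviations from their group means correlated at 0.24, -0.30 and -0.25 across genes, and arrays of different number at -0.28 to 0.47. These values cannot decide whether the replicate numbers pair the samples, since the deviations of 3 arrays sum to 0 in each group. The median change of all genes, -0.11 as deposited, was -0.03, 0.04 and -0.01 under the 3 scalings, under which all 10 genes stayed lower in AML by value, although Sost, Fgf23, Pdpn, Vdr, Cyp24a1 and Gja1 moved by over 1.5 times under at least 1 of them. Sik1, Ncoa3 and Ncoa1 passed under median centring and missed the threshold under the other two and with the replicate block. With an offset of 16, Ncoa3 and Ncoa1 missed it (limma adjusted p = 0.0542 and 0.0612), and Ncoa1 also with trend and robust options (limma adjusted p = 0.0503). Hpgd passed in 3 alternatives and Rdx in 2.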
